A study of Mus musculus with 19 samples.

Results

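The untreated mammary tumours of the C3(1)-Tag mouse were profiled against a whole-mouse reference RNA to describe their baseline state. The 7 arrays with the word untreated in their title were taken, out of 19 in the series. The other 12 arrays came from mice given chemotherapy for 2 or 3 weeks and were not used. All were adenocarcinomas of the mammary gland from FVB mice that carry the T antigen of simian virus SV40 under the rat C3(1) promoter. The 7 tumours shared strain, transgene and promoter, and had received no drug. The labels give neither the age nor the sex of the mice, nor how the animals were related. Each tumour was hybridised once, with tumour RNA in Cy5 and the Whole Mouse Reference RNA in Cy3. Tumours are called 1 to 7 in the order of their accession, which names them and pairs nothing.

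The T antigen is a viral oncoprotein that binds the retinoblastoma protein and p53, which releases E2F transcription factors and blocks the p53 response. The rat C3(1) promoter directs it to mammary and some other epithelia, where lesions progress to invasive carcinoma. A whole-mouse reference mixes RNA of many organs. A ratio against it therefore compares a tumour with that mixture and not with normal mammary gland.

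Every value is a log2 ratio of tumour over reference, so that 1 stands for a 2-fold higher and -1 for a 2-fold lower level in the tumour. The log base and the direction are inferred and only likely, since the labels do not state them. The basis is that liver and muscle genes lay far below 0, and with the ratio turned every sign below would turn. With exact zeros taken as missing and all spots per gene averaged, 18502 genes were tested, of which 16171 were measured on all 7 arrays. Arrays correlated with each other at 0.733 to 0.815 over genes, and array medians lay between -0.07 and -0.02. The SD of the gene values over an array was 1.15 in tumours 5 and 7 and 1.44 in tumour 1. Among 554 genes with a mean under -3, the array median was -4.61 in tumour 1 and -3.04 in tumour 5. Means are given with their standard error over 7 tumours, and p-values measure the spread between these tumours only. The spread of the reference was not measured, and no dye was swapped, so dye bias at a spot remains in its ratio. In bulk tissue, fewer cells of a type and less RNA per cell cannot be told apart.

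Of 18502 genes, 3725 (20.1%) were higher and 4894 (26.5%) lower in the tumours than in the reference by limma, at an adjusted p under 0.05 (8619 in all, 46.6%). Beyond a 2-fold difference, 456 genes (2.46%) were higher and 1658 (8.96%) lower (2114 in all, 11.4%). The median of all gene means was -0.02. Among the genes with the highest means and the same sign in every tumour were a receptor subunit, chemokines and early response genes. Apol9a, an apolipoprotein L gene, ran from 3.79 in tumour 4 over a median of 5.24 to 8.48 in tumour 3. All 7 tumours were far above the reference, with a mean of 5.82 ± 0.56, 56.4-fold (adjusted p beyond 2-fold = 0.000183). Gabrp, the pi subunit of the GABA-A receptor, ran from 3.40 in tumour 3 over a median of 5.67 to 7.22 in tumour 2. It too was high throughout, with a mean of 5.41 ± 0.42, 42.5-fold (adjusted p beyond 2-fold = 5.44e-05). The kappa-casein gene Csn3 was the milk protein among them, between 1.07 in tumour 7 and 5.89 in tumour 1, with a median of 3.79 and a mean of 3.70 ± 0.56.

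The early response transcription factor Egr2 was measured by 10 spots and had a mean of 4.10 ± 0.28. Its 7 values ran from 2.30 in tumour 7 over a median of 4.33 to 4.83 in tumour 2. The chemokines Cxcl5, which draws neutrophils, and Ccl8, which draws monocytes, had means of 4.10 ± 0.45 and 3.80 ± 0.26. Cxcl5 was lowest in tumour 4 at 1.77 and highest in tumour 6 at 6.22, a far wider range than for Arc. Arc, an immediate-early gene of neurons, stayed between 2.96 and 4.22 (mean 3.62 ± 0.17), and Macc1, a regulator of the MET receptor gene in human colon cancer, between 3.10 and 4.10 (mean 3.53 ± 0.16). The stromelysin Mmp3, a matrix protease, spanned 2.20 in tumour 4 to 5.87 in tumour 1 (mean 3.79 ± 0.41). The thymic autoimmune regulator Aire passed beyond 2-fold as well, but tumour 3 stood at 8.88 and tumour 1 at 1.10, around a median of 3.77. Aire, Apol9a, Gabrp, Cxcl5, Ccl8, Mmp3, Arc and Macc1 had 1 spot each.

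**Figure D1:**
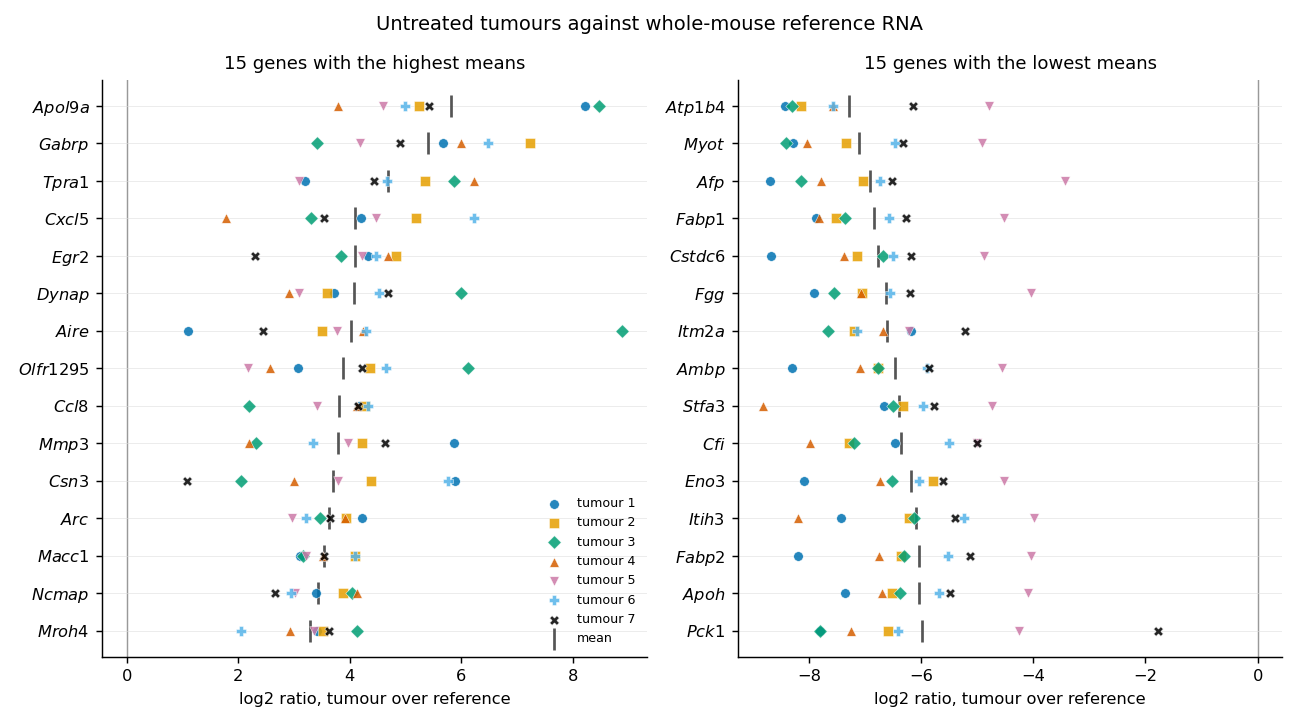
Log2 ratio of tumour over reference (horizontal axis) for the genes highest and lowest by mean. Each point is 1 of the 7 tumours and the bar marks the mean. Apol9a lies highest with values from 3.79 to 8.48, and Atp1b4 lowest with values from -8.42 to -4.79.

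Among the genes with the lowest means were some known from skeletal muscle, liver and fetal tissue. Atp1b4, a muscle protein related to the sodium pump, ran from -8.42 over a median of -7.56 to -4.79, with the highest value in tumour 5. Its mean was -7.27 ± 0.42, 155-fold lower (adjusted p beyond 2-fold = 1.21e-05). The sarcomere gene Myot was 138-fold lower, and the liver fatty acid carrier Fabp1 115-fold lower. Afp, the fetal serum protein alpha-fetoprotein, was measured by 10 spots and ran from -8.69 in tumour 1 over -7.04 to -3.44 in tumour 5. Pck1, an enzyme of glucose synthesis in liver that fat cells also express, lay between -7.81 and -4.25 in 6 tumours but at -1.77 in tumour 7. Itm2a, a membrane protein of muscle, cartilage and T cells, had a mean of -6.61 ± 0.27, with all values between -7.66 and -5.22.

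Genes of the cell cycle were higher as groups. Counts for these and the later lists are to be read beside all genes, of which 20.1% were higher and 26.5% lower. Beyond 2-fold the shares over all genes were 2.46% and 8.96%. Of 31 mitosis genes measured, 31 were higher than the reference, 12 of them beyond 2-fold, and the median of their means was 1.40. Of 31 DNA replication genes, 30 were higher, 16 beyond 2-fold, with a median of 1.50. Thymidine kinase Tk1 was the replication gene that did not pass (0.64 ± 0.25, adjusted p = 0.0626), though it did without tumour 6 (adjusted p = 0.0436). Array medians of the mitosis genes ran from 1.17 in tumour 7 to 1.78 in tumour 4, and those of the replication genes from 1.40 in tumour 5 to 2.01 in tumour 4. Tumour 4 held the highest value of 12 of the 31 mitosis genes and tumour 7 the lowest value of 14.

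Mcm4, a subunit of the replicative helicase, had a mean of 2.75 ± 0.18, with values from 2.29 in tumour 2 to 3.65 in tumour 4. Mcm6, another subunit of this helicase, ran from 1.94 in tumour 2 over a median of 2.52 to 2.93 in tumour 6, with a mean of 2.44 ± 0.15 (adjusted p beyond 2-fold = 8.51e-05). The licensing factor Cdc6 ran from 1.75 in tumour 5 over 2.53 to 2.96 in tumour 3, with a mean of 2.40 ± 0.17. Every tumour was above the reference by over 1 unit for these 3 genes. Cdc20, an activator of the anaphase-promoting complex, ran from 1.32 in tumour 7 over 1.96 to 2.95 in tumour 4, with a mean of 2.12 ± 0.20. The checkpoint kinase Bub1 (2.08 ± 0.29) and the centrosome kinase Nek2 (2.08 ± 0.13) stood close to it. The lowest mitosis means were those of Espl1, the protease separase (0.73 ± 0.25), the proliferation marker Mki67 (0.52 ± 0.14) and the ubiquitin-conjugating enzyme Ube2c (0.49 ± 0.11), which passed against 0 but not beyond 2-fold. The 2 spots of Espl1 went in opposite directions (-0.42 and 1.58), and it did not pass without tumour 1, 3, 4 or 6 (adjusted p of 0.0794 to 0.0897).

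Promoters of these genes carry known cell cycle elements, so the 300 bases around the start, mostly before it, were searched in RefSeq sequence of build GRCm38.p6. The E2F element was taken as TTTCCCGC, TTTGGCGC, TTTCGCGC or TTTGCCGC, the CHR (cell cycle homology region) as TTTGAA and the CCAAT box as CCAAT, each on both strands. An E2F element was present in 11 of 26 replication promoters (42.3%), in 7 of 18 of the Rb and E2F pathway (38.9%), in 4 of 14 of DNA repair (28.6%) and in 1 of 25 mitosis promoters (4.0%). It was present in 475 of all 14838 promoters (3.2%). The CHR was present in 19 of 25 mitosis promoters (76.0%), in 4 of 26 replication promoters (15.4%) and in 14.7% of all. A CCAAT box was in 84.0% of mitosis promoters and in 38.7% of all. It was also in 61.5% of replication, 57.1% of DNA repair and 78.6% of antigen presentation promoters. Among genes beyond 2-fold, an E2F element lay in 7.71% of 350 promoters of higher genes and in 1.17% of 1284 of lower genes. The promoters of Mcm6, Cdc6 and Cdc20 are examples picked from those that hold the element, so a match in them was certain. Capitals mark the E2F element in the replication genes Mcm6 and Cdc6 and the CHR in the mitosis gene Cdc20. The Mcm6 promoter lies on the minus strand at chr1:128359656-128359955, that of Cdc6 on the plus strand at chr11:98907901-98908200 and that of Cdc20 on the minus strand at chr4:118437294-118437593, each printed 5′ to 3′ along its gene.
Mcm6: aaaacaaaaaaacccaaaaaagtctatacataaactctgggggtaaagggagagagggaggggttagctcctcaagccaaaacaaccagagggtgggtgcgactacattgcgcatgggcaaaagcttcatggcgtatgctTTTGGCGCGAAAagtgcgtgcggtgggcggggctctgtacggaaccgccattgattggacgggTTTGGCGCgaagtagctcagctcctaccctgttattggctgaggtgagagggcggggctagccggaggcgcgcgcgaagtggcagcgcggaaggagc
Cdc6: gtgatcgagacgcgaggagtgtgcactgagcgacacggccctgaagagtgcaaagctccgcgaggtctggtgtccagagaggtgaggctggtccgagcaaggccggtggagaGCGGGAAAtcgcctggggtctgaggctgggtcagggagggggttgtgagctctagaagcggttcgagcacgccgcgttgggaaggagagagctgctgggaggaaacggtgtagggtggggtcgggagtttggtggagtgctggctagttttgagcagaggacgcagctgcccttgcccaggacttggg
Cdc20: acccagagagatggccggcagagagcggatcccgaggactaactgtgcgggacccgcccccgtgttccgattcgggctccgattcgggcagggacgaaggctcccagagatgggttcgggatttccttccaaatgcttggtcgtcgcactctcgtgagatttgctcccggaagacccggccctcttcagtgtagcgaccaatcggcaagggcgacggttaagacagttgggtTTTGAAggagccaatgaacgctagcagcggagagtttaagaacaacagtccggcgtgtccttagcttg
In Mcm6 the search found 3 matches, of which a pair overlaps. A match describes the letters of this window and is no evidence of binding.

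Of 22 measured genes of the Rb and E2F pathway, 11 were higher and 4 lower, with a median of 0.51. Cdkn2a, which encodes the cell cycle inhibitor p16 and the p53 activator ARF, was measured by 10 spots. It ran from 2.76 in tumour 5 over a median of 3.13 to 3.66 in tumour 1. All 7 tumours lay close together, with an SD of 0.28 and a mean of 3.12 ± 0.13, 8.72-fold (adjusted p = 1.45e-06). Its neighbour Cdkn2b, the inhibitor p15, had a mean of 2.64 ± 0.21. Rbl1, the retinoblastoma relative p107, stood at 1.94 ± 0.18, and Rb1 itself, on 11 spots, at -0.21 ± 0.23 without passing (adjusted p = 0.487). The D-type cyclins, which start G1, were lower, with Ccnd2 at -2.96 ± 0.26, Ccnd3 at -1.60 ± 0.16 and Ccnd1, on 10 spots, at -1.07 ± 0.31 (adjusted p = 0.0185). Ccnd1 ran from -2.75 in tumour 4 over -1.03 to -0.09 in tumour 3, so tumour 3 lay near the reference. Titles of tumours 1 and 2 are written in another style than those of the other 5, and with the 2 title styles weighted equally Ccnd1 missed the threshold (-0.95, adjusted p = 0.0593). E2f1, a transcription factor of S-phase entry, was higher on 11 spots (1.63 ± 0.22).

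Of 18 measured genes of the p53 pathway, 7 were higher and 4 lower, beside 20.1% and 26.5% of all genes. None passed beyond 2-fold, and the median was -0.15. The death gene Pmaip1 had a mean of 1.38 ± 0.19, and Mdm2, the ubiquitin ligase of p53, was at 0.79 ± 0.21 on 11 spots (adjusted p = 0.0139). With its most variable spot alone, Mdm2 did not pass (1.21, adjusted p = 0.0599). The cell cycle inhibitor Cdkn1a, a main p53 target, stood at -0.55 ± 0.24 on 10 spots and did not pass (adjusted p = 0.0933), but passed without tumour 3 (-0.69, adjusted p = 0.0452) and with title styles weighted equally (-0.79, adjusted p = 0.013). The p53 targets Sesn1 (-1.35 ± 0.15), Ccng1 (-1.32 ± 0.19) and Fas (-1.02 ± 0.16) were lower. Of 17 DNA repair genes, 16 were higher, 5 beyond 2-fold, with a median of 1.24. The nuclease Exo1 (2.96 ± 0.20) and the checkpoint kinase Chek1 (2.35 ± 0.15) had the highest means. The kinase Atr was the repair gene that did not pass (0.10 ± 0.12, adjusted p = 0.524), with spots on both sides of 0.

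Markers of luminal epithelium, the milk-facing cell layer of the gland, were mostly higher. Of 22 measured, 13 were higher and 2 lower, 8 higher beyond 2-fold, with a median of 1.29. The adhesion molecule Epcam ran from 2.04 in tumour 5 over 2.37 to 3.03 in tumour 1, with a mean of 2.47 ± 0.14. Keratin 18 (Krt18) ran from 1.32 in tumour 2 over 2.95 to 4.05 in tumour 3, with a mean of 2.75 ± 0.31, while its partner Krt8 had 1.17 ± 0.17. Both were above the reference in every tumour. The luminal regulator Gata3 (2.48 ± 0.25), the alveolar factor Elf5 (2.19 ± 0.29) and the progenitor receptor Kit (2.10 ± 0.15, 10 spots) were higher too. The tight junction gene Cldn4, on 1 spot, was the most uneven, from 0.36 in tumour 6 over 1.69 to 8.32 in tumour 3. Cd24a (-1.33 ± 0.18) and Ltf (-1.37 ± 0.48) were the luminal markers that were lower, but Ltf did not pass without tumour 2, 3, 4, 5 or 6 (adjusted p of 0.0587 to 0.0906), with its most variable spot (0.0579) or with title styles weighted equally (0.121).

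The oestrogen receptor gene Esr1 was higher than the reference on 10 spots, from 0.64 in tumour 3 over 1.42 to 2.48 in tumour 2, with a mean of 1.40 ± 0.21 (adjusted p = 0.000483). Of the 11 measured genes of its axis it was the only one higher, while 6 were lower and the median was -0.95. Its known target Greb1 stood at -0.95 ± 0.22, and Agr2 (-4.40 ± 0.25) and Tff1 (-3.76 ± 0.18) were lower beyond 2-fold. The progesterone receptor gene Pgr, with a mean of 0.03 ± 0.21 and 2 spots on opposite sides of 0, did not pass.

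Basal and myoepithelial markers, of the contractile outer layer, were higher for 3 and lower for 10 of 21, with a median of -0.88 that stood at -0.45 without tumour 4. Keratin 5 (Krt5) ran from -3.59 in tumour 4 over -3.05 to -1.53 in tumour 7, with a mean of -2.85 ± 0.23. Its partner Krt14 had a mean of -0.04 ± 0.28 and did not pass. The smooth muscle actin gene Acta2 (14 spots) was lower at -2.01 ± 0.19, and Lamb3, a chain of the basement membrane protein laminin, was higher at 2.32 ± 0.25. Of 19 squamous markers, 18 were lower, 11 beyond 2-fold (median -2.25), led by the cornified envelope gene Lor at -5.13 ± 0.37. Among 22 genes of epithelial-mesenchymal transition, 6 were higher and 9 lower, beside 20.1% and 26.5% of all genes. The epithelial regulators Grhl2 (2.01 ± 0.26) and Esrp1 (1.84 ± 0.15) were higher. With the most variable of its 3 spots in place of their mean, Grhl2 missed the threshold (0.65, adjusted p = 0.259). The mesenchymal genes Vim (-1.93 ± 0.33), Twist2 (-2.86 ± 0.25) and Mmp13 (-3.12 ± 0.24) were lower. E-cadherin (Cdh1), on 10 spots, stood at -0.43 ± 0.25 without passing (adjusted p = 0.195), but passed with the title styles weighted equally (-0.67, adjusted p = 0.0406).

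**Figure D2:**
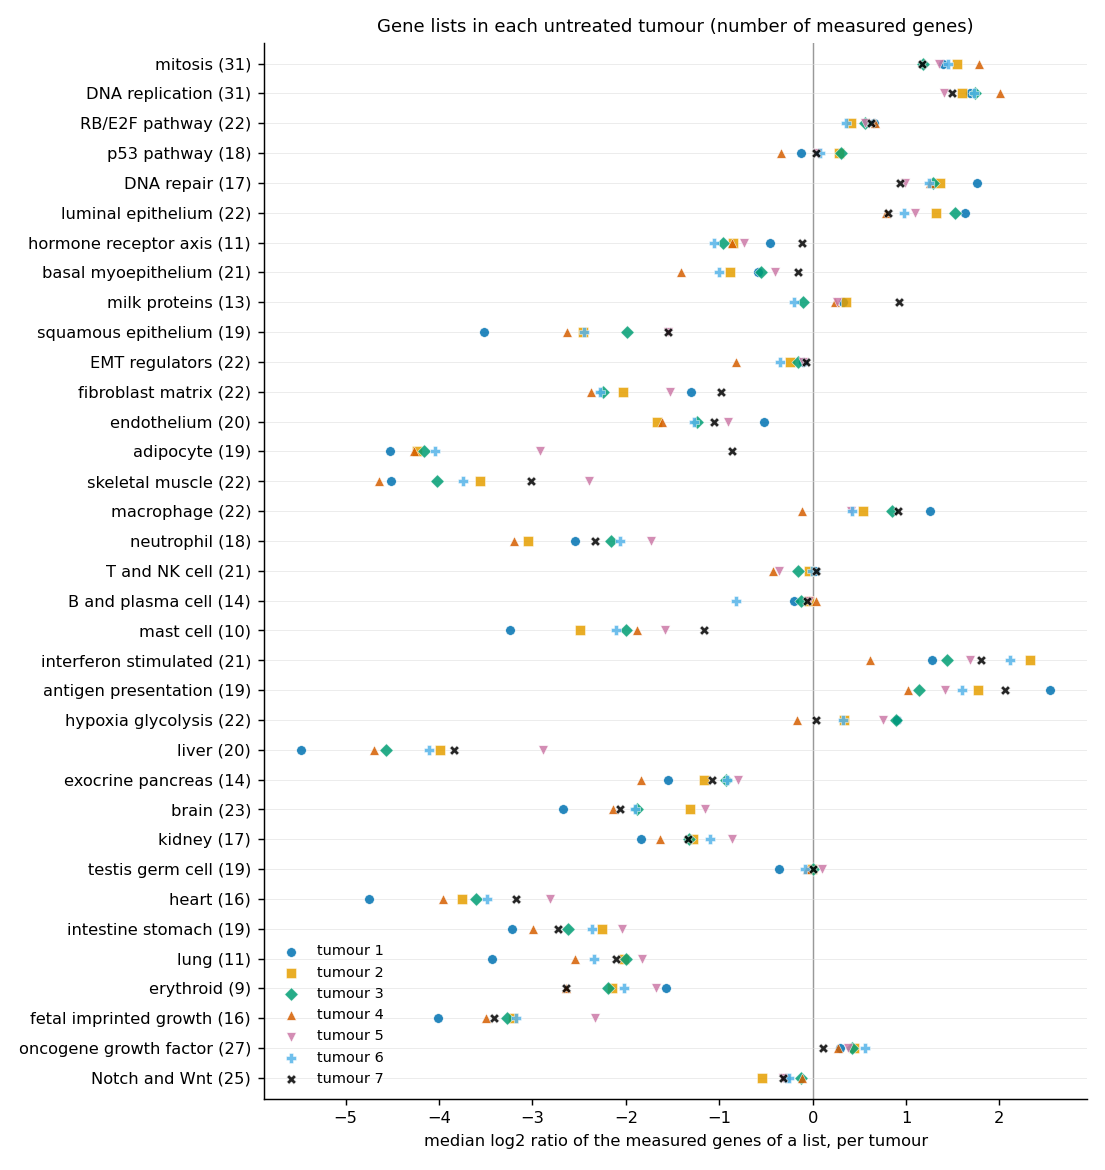
Median log2 ratio of the measured genes of each list (horizontal axis), with 1 point per tumour and 1 line of points per list. Mitosis, DNA replication, luminal and interferon lists lie right of 0 and stroma and most organ lists left of it, and tumour 7 stands apart for adipocyte genes at -0.86.

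Genes of the stroma were lower. Of 22 fibroblast and matrix genes, 20 were lower, 13 beyond 2-fold, and 1 was higher, with a median of -1.96. The collagen gene Col1a1 (12 spots) ran from -3.81 in tumour 3 over -2.88 to -1.46 in tumour 1, with a mean of -2.95 ± 0.29. The proteoglycan genes Ogn (-4.31 ± 0.30) and Lum (-3.46 ± 0.36) were lower still, and the matrix gene Fbln2 was the exception at 0.94 ± 0.18. Of 20 endothelial genes, 16 were lower and 1 higher (median -1.16). The tight junction gene Cldn5 had a mean of -3.23 ± 0.26, and the VEGF receptor Flt1 was the one that was higher (0.71 ± 0.22), but not without tumour 6 (adjusted p = 0.055), with title styles weighted equally (0.64, adjusted p = 0.0646) or with its most variable spot (0.29, adjusted p = 0.73). Tumour 1 held the highest value of 13 of the 20 endothelial genes. Of 22 skeletal muscle genes, 22 were lower, 21 beyond 2-fold, with a median of -3.83.

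Adipocyte genes were lower for 18 of 19, 14 beyond 2-fold, with a median of -3.74, but the tumours did not move together. Array medians ran from -4.52 in tumour 1 to -2.92 in tumour 5 for 6 tumours and stood at -0.86 in tumour 7. Tumour 7 held the highest value of 18 of the 19 genes. The adipokine Adipoq ran from -5.77 in tumour 1 over -4.45 to -0.86 in tumour 7. The lipid droplet gene Cidec stood at -0.09 in tumour 7 and no higher than -4.88 in the other 6, and the fatty acid carrier Fabp4 at -0.06 in tumour 7 and no higher than -3.01. Their means were -4.0 ± 0.50, -4.81 ± 0.65 and -3.74 ± 0.58. Pck1, named above, had its highest value in the same tumour. The part of fat tissue in the sampled piece was not tested.

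**Figure D3:**
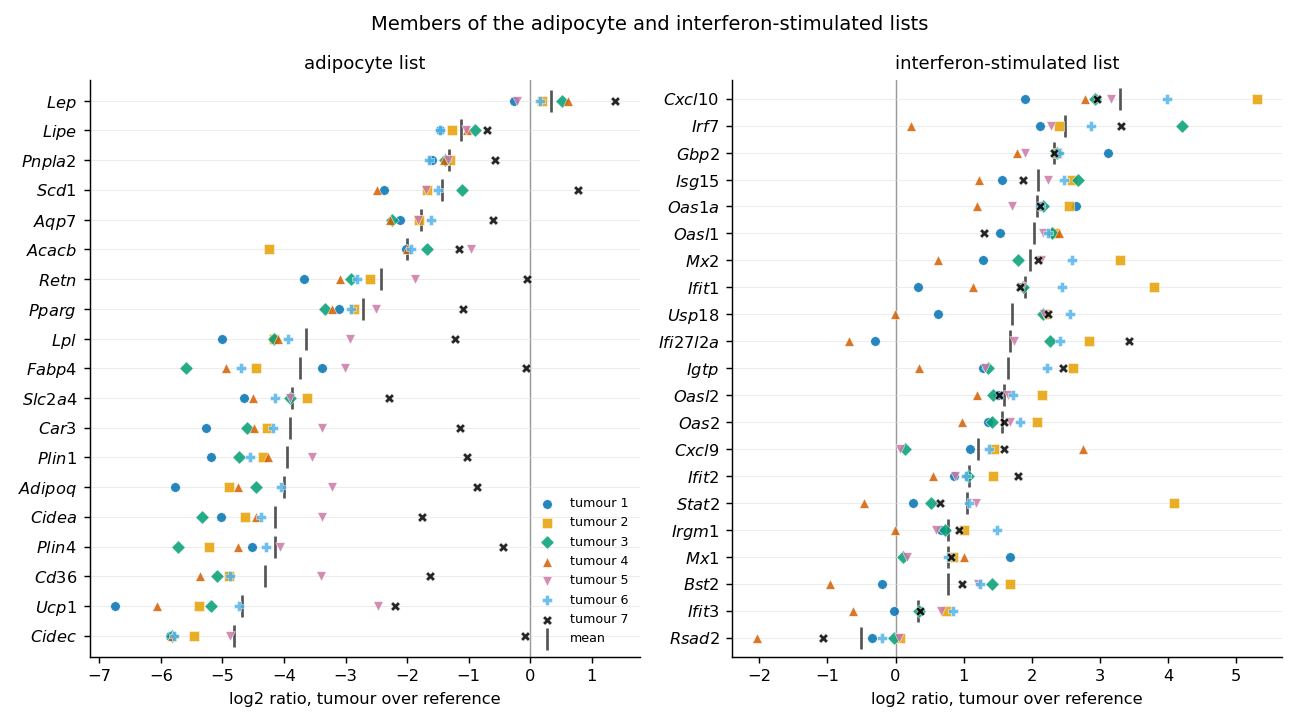
Log2 ratio of tumour over reference (horizontal axis) for the members of the adipocyte list and of the interferon-stimulated list (vertical axis). Each point is 1 of the 7 tumours and the bar marks the mean of a gene. Adipocyte genes are highest in tumour 7 (median -0.86) and interferon-stimulated genes lowest in tumour 4 (median 0.62).

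Interferon-stimulated genes, induced when cells sense viruses or cytokines, were higher for 17 of 21, 9 beyond 2-fold, and none was lower (median 1.66). Array medians ran from 0.62 in tumour 4 to 2.33 in tumour 2, and tumour 4 held the lowest value of 16 of the 21 genes. This was not particular to the interferon list. Tumour 4 was also lowest for 13 of 22 fibroblast and matrix, 10 of 22 macrophage and 10 of 19 antigen presentation genes, but for 1 of 31 mitosis genes. The chemokine Cxcl10 ran from 1.90 in tumour 1 over 2.95 to 5.31 in tumour 2, with a mean of 3.29 ± 0.35. The transcription factor Irf7 ran from 0.23 in tumour 4 over 2.39 to 4.2 in tumour 3, so tumour 4 was close to the reference. Antigen presentation genes were higher for 17 of 19, 8 beyond 2-fold (median 1.63). The class I genes H2-D1 (2.80 ± 0.23) and H2-K1 (2.48 ± 0.17, 14 spots) led. Their light chain gene B2m (12 spots) ran from 0.55 in tumour 1 over 2.33 to 3.68 in tumour 2, and the class II gene H2-Ab1 (13 spots) from 0.39 in tumour 5 over 1.60 to 3.36 in tumour 1. Cross-hybridisation within such gene families was not tested.

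Macrophage markers were higher for 12 and lower for 4 of 22, with a median of 0.79. The lysosomal protease Ctss (2.95 ± 0.17) and the endotoxin co-receptor Cd14 (2.12 ± 0.18) were higher, and the scavenger receptor Marco (-3.05 ± 0.22), the arginase Arg1 (-1.78 ± 0.40) and the mannose receptor Mrc1 (-1.26 ± 0.24) lower. Of 18 neutrophil genes, 4 were higher and 11 lower, with a median of -2.39. The cytokine gene Il1b (2.77 ± 0.20, 10 spots) and Lcn2 (2.02 ± 0.20) were higher, while the granule genes Camp (-5.20 ± 0.22), S100a9 (-4.53 ± 0.33) and S100a8 (-3.84 ± 0.21) were lower. Of 21 T and NK cell genes, 3 were higher, 6 lower and 12 did not pass (median -0.13), beside 20.1% higher and 26.5% lower of all genes. The co-receptor Cd8a stood at -1.32 ± 0.13 on 12 spots and the granule protease Gzma at -2.95 ± 0.47. The co-receptor Cd4, on 11 spots, did not pass (0.19 ± 0.12, adjusted p = 0.219). Of 14 B and plasma cell genes, 1 was higher and 5 lower, beside the same 20.1% and 26.5% of all genes. The one that was higher was the antibody joining chain Jchain, from 1.17 in tumour 3 over 2.03 to 4.02 in tumour 7. Of 10 mast cell genes, 1 was higher, 3 did not pass and 6 were lower beyond 2-fold, with the proteases Cpa3 (-4.59 ± 0.29) and Cma1 (-4.11 ± 0.20) lowest.

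Of 22 genes of hypoxia and glycolysis, 10 were higher and 4 lower (median 0.35). The glucose transporter Slc2a1 had a mean of 2.09 ± 0.37 and Ankrd37 of 1.92 ± 0.21, while the mitophagy gene Bnip3 was lower at -2.03 ± 0.33. Array medians ran from -0.17 in tumour 4 to 0.90 in tumour 1, and tumour 4 held the lowest value of 12 of the 22. Among 27 oncogenes and growth factors, 11 were higher and 6 lower, beside 20.1% and 26.5% of all genes. The phosphatase Dusp6, a feedback target of ERK signalling (2.50 ± 0.21), and the EGF receptor ligand Hbegf (2.21 ± 0.21) were highest. The insulin-like growth factors Igf1 (-2.34 ± 0.24) and Igf2 (-2.78 ± 0.25), on 11 spots each, were lower. Erbb2 (11 spots) had a mean of 0.78 ± 0.15, with its highest value of 1.50 in tumour 1, and did not pass with its most variable spot (0.51, adjusted p = 0.25). Of 25 Notch and Wnt genes, 5 were higher and 10 lower, beside 20.1% and 26.5% of all genes. The Notch target Hes1 (1.19 ± 0.18) was higher and the Wnt target Axin2 (-1.79 ± 0.27) lower.

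Most genes of other organs, the testis aside, were lower than in the mixed reference. All 20 liver genes were lower beyond 2-fold (median -4.2). Of 16 heart genes 14 were lower (median -3.55), of 19 intestine and stomach genes 15 (median -2.46) and of 11 lung genes 9 (median -2.26). Of 23 brain genes 14 were lower (median -1.77), of 14 exocrine pancreas genes 8 (median -1.30) and of 17 kidney genes 12 (median -1.23), and the other genes of these lists did not pass. The 19 testis and germ cell genes had a median of 0.04, with 1 higher and 2 lower. All 9 erythroid genes were lower (median -2.05), as were 14 of 16 fetal and imprinted growth genes (median -3.12), with the imprinted gene Mest at -5.17 ± 0.32. Even the highest of the liver markers, the albumin gene Alb, had a mean of -2.74 ± 0.34. Tumour 5 held the highest value of 16 of the 20 liver genes (median -2.88) and of 17 of the 22 skeletal muscle genes. The scale of its array and the content of the tissue cannot be told apart here. Milk protein genes were uneven, with 4 higher and 3 lower of 13 (median 0.33), beside 20.1% and 26.5% of all genes.

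The tumours differed from each other by a median SD of 0.47 over the 16171 genes measured in all 7, and 1368 genes (8.46%) had an SD over 1. The variance was spread over the components, with 22.0% on the first principal component and 11.1% on the sixth. Between the 2 tumours with a hyphen after Tag in the title (1 and 2) and the other 5, 0 of 18497 genes (0%) passed by limma, with 1565 at an unadjusted p under 0.05 and a lowest adjusted p of 0.143. With tumour 1 left out 73 genes passed and with tumour 2 left out 4, where the lone hyphen-titled tumour was taken to vary like the others. No label says what the title style follows. The 200 most variable genes had an SD of 1.66 to 3.05, and 178 of them (89.0%) rested on 1 spot, beside 51.05% of all genes. Tumour 2 was the most extreme tumour for 44 of these 200, and tumour 1 for 15. For the 6356 genes with at least 2 complete spots, the first 2 of these were compared. They named the same tumour as the most extreme, in the same direction, for 20.53%, and for 91 of the 200 most variable of these genes (45.5%).

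Among the most variable genes with over 1 spot, a single tumour was usually far from the rest. For several of them, such as Tprg, Nudt16l2 and Cyp2j6, only 1 of the 2 spots was measured in that tumour. Such a value is not repeated by a second spot. Hapln1 and Retnla had both spots in every tumour. The Wnt inhibitor Dkk1 stood at 2.64 in tumour 3 and between -4.45 and -0.29 in the others. Only 1 of its 2 spots was measured in tumours 3 and 7, and in tumour 4 the 2 spots stood at -0.61 and -5.23. Hapln1, a link protein of hyaluronan matrix, stood at 1.39 in tumour 4 and no higher than -2.12 elsewhere. Retnla, a secreted protein of alternatively activated macrophages and fat tissue, stood at 1.22 in tumour 7, the tumour with the high adipocyte genes, and no higher than -0.67 elsewhere. With 1 spot, the neuropeptide gene Npy was lowest in tumour 2 (-8.06 beside -2.68 as the next), as was the homeobox gene Isl2 (-9.76 beside -6.00). No second spot measured these genes.

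Genes with at least 8 spots allow the spread between tumours to be set against that between spots. Over 215 such genes the median SD was 0.48 between tumours and 0.39 between the spots of a gene within an array, and 15 had an SD between tumours over 1. The SD between tumours is that of means over 8 or more spots, while the SD between spots is that of single spots. The latter also holds lasting differences between the spots of a gene, so it is not the error of a tumour value. Those described here were chosen after their values were seen. The prostaglandin synthase Ptgs2 (11 spots) stood at 0.25 in tumour 4, 0.58 in tumour 3, 1.70 in tumour 5, 2.94 in tumour 6, 3.87 in tumour 1, 4.30 in tumour 2 and 4.51 in tumour 7. Tumours 3 and 4 were thus near the reference and tumours 1, 2 and 7 well above it. The receptor Notch1 (11 spots) stood at 3.40 in tumour 2 and between -0.61 and 0.82 in the others. Bmp7, a growth factor of the TGF-beta family (11 spots), was above the reference in tumour 3 alone, at 1.15, beside -3.69 to -0.73 elsewhere.

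The gap junction gene Gja1 (10 spots) was below the reference in tumour 4 at -0.74 and between 1.34 and 2.30 in the others. The annexin Anxa8 (10 spots) was lowest in tumour 4 as well, at -1.27, and highest in tumour 7 at 2.71. The growth factor receptor Fgfr1 (13 spots) was highest in tumour 1 at 2.56, with 1.19 as the next and -0.34 in tumour 2. The mean of 1 or more of its spots lay below 0, as low as -0.44, while the highest lay at 1.39. Myc, the proliferation transcription factor (12 spots), lay between 0.54 and 0.83 in 6 tumours and at 1.78 in tumour 6.

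**Figure D4:**
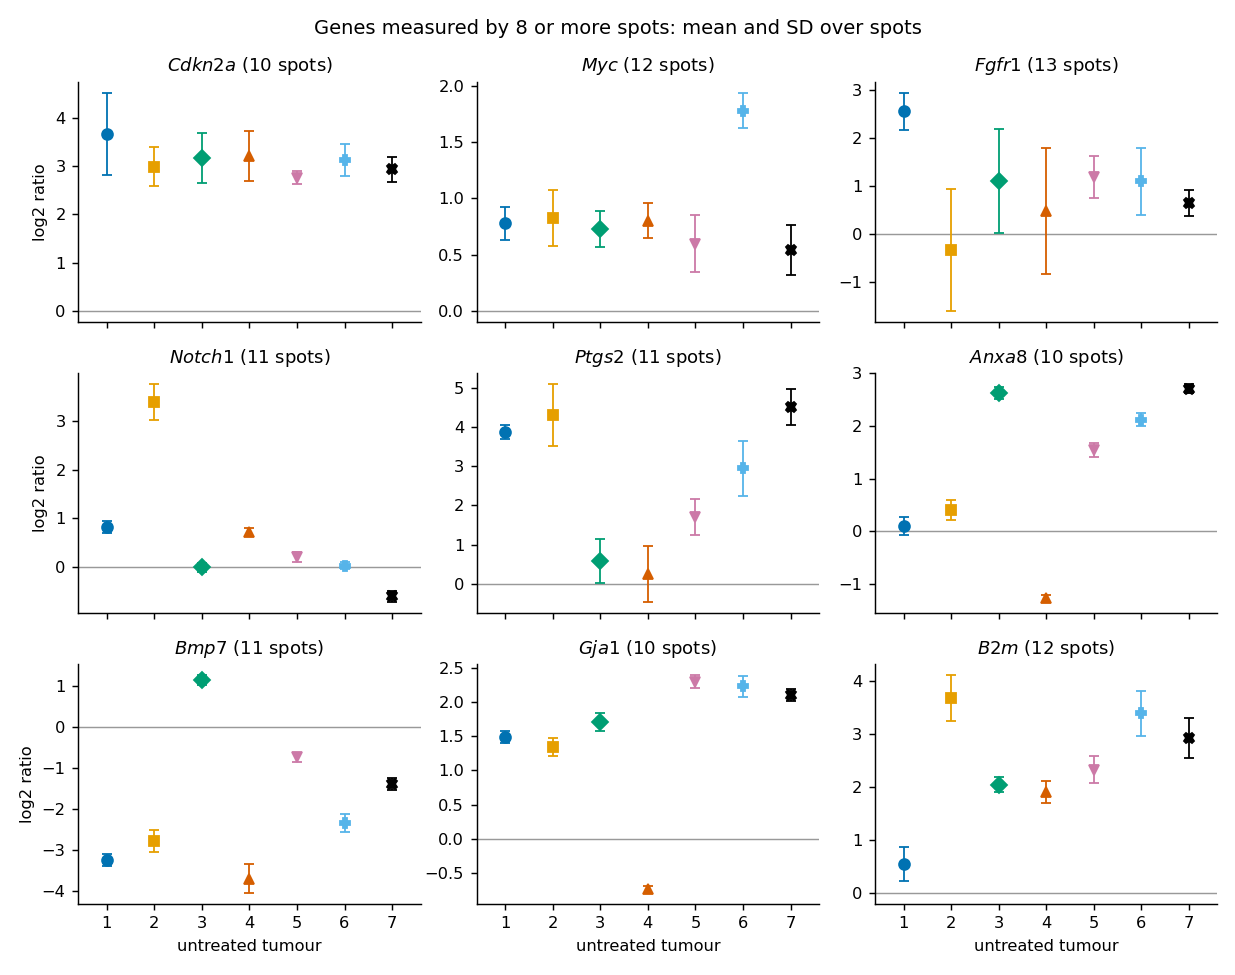
Log2 ratio of tumour over reference (vertical axis) in each tumour (horizontal axis) for 9 genes with 10 or more spots. Points are means and bars the SD over the spots of the gene on that array. Cdkn2a is level across the tumours, while Notch1 is high in tumour 2, Myc in tumour 6 and Fgfr1 in tumour 1, and Bmp7 is above 0 in tumour 3 alone.

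Variable genes also lay next to each other on the chromosomes. In each run of 15 neighbouring measured genes, in the gene order of assembly GRCm38.p6, the deviation of each tumour from the gene means was taken as a median over the run. The SD of these 7 medians had a median of 0.17 over 18173 runs and a 99th percentile of 0.40. The 3 highest runs that share no gene were all on the distal part of chromosome 6, within 73 genes from H2aj to Amn1, a description chosen after the values were seen. Of these 73 genes, 41 had an SD over 1, beside 8.46% of the genes measured in all 7 tumours. Against the reference 22 were higher and 10 lower, beside 20.1% and 26.5% of all genes. With runs of 10 genes the 3 highest were on chromosome 6 too, and with 25 genes 2 of 3 were.

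The tumours that were high differed between the runs. From H2aj to Pik3c2g (SD 0.97) tumour 4 had a median of 1.58, while the other 6 lay between -0.72 and -0.05, and it held the highest value of 10 of 15 genes. Without tumour 4 the SD of this run was 0.19. Mgp, a calcification inhibitor of matrix, stood at 5.14 in tumour 4 and between 0.92 and 1.73 in the others, on 1 spot. Eps8, an actin regulator downstream of the EGF receptor, stood at 4.0 in tumour 4 and no higher than 2.08 elsewhere, on 2 spots. From Slco1a5 to Sox5 (SD 0.80) tumours 6, 3 and 4 had median log2 ratios of 2.30, 1.87 and 1.77. Tumour 5 had one of 0.65, and tumours 1, 2 and 7 ones of -0.35, 0.07 and -0.09. The order was another by deviation from the gene means, on which the SD rests. By that measure tumour 4 led at 1.21, followed by tumour 6 at 0.61, tumour 5 at 0.23 and tumour 3 at 0.21. Tumour 4 held the highest value of 8 of the 15 genes, and tumours 3 and 6 of 2 each. C2cd5, a gene of glucose transporter traffic, stood at 4.78 in tumour 4 and 0.01 in tumour 7, on 1 spot. Golt1b, a Golgi transport gene, stood at 4.09 in tumour 3 and 0.54 in tumour 1.

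From Sspn to Gm6288 (SD 1.26), the highest run of all, tumour 3 had a median of 3.32 and the highest value of 11 of 15 genes, 14 of which had an SD over 1. Without tumour 3 the SD of this run was 0.54. The next tumour, tumour 5, had a median of 1.08, and tumours 4, 6 and 7 stood at 0.00, 0.02 and -0.25. Ppfibp1, a liprin of cell adhesion (3 spots), stood at 4.09 in tumour 3 and between 0.06 and 1.97 in the others. The kinase Stk38l (2 spots) stood at 3.77 in tumour 3 and no higher than 2.52 elsewhere. Further along, tumour 1 was highest, with the nuclear import gene Ipo8 at 3.16 and the chromatin gene Sinhcaf at 3.44, each on 2 spots. Over the 73 genes, tumour 4 was highest for 24, tumour 3 for 18 and tumour 1 for 12, and tumour 7 exceeded 1 for 8. DNA copy number was not analysed here, and its part in these runs was not tested.

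**Figure D5:**
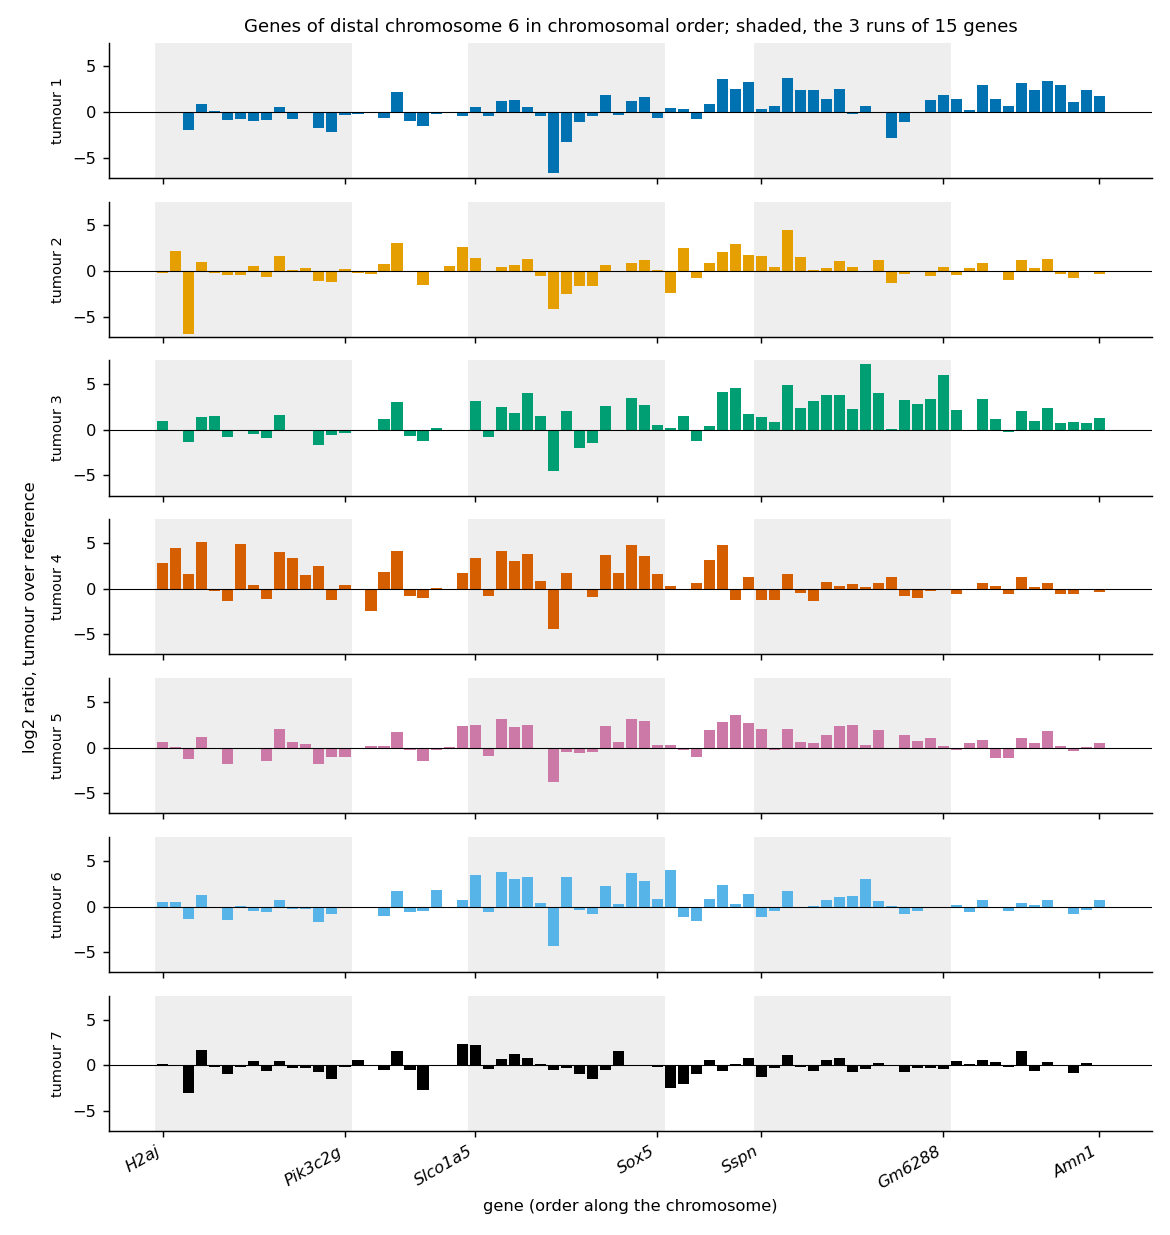
Log2 ratio of tumour over reference (vertical axis) for 73 neighbouring genes of distal chromosome 6 in their order (horizontal axis), with 1 panel per tumour. Shading marks the 3 runs of 15 genes. Tumour 4 is high in the first run (median 1.58) and tumour 3 in the last (median 3.32). In the second run tumours 3, 4 and 6 have the highest medians, and tumour 4 the highest value of 8 of 15 genes.

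Runs elsewhere were weaker, and they held some of the genes described above. On chromosome 8, the run from Htra4 to Fnta, which holds Fgfr1, had a median of 1.12 in tumour 1 and 0.18 to 0.66 in the others, and tumour 1 was highest for 11 of 15 genes. The neighbouring run from Smim19 to Sfrp1 was likewise highest in tumour 1, at 1.20 and for 11 of 15 genes. On chromosome 17, the run from Prrc2a to H2-Q7, in the histocompatibility complex, was highest in tumour 1 at 1.30. On chromosome 15, the run from Csmd3 to Taf2 had a median of 1.09 in tumour 6, the tumour with the highest Myc. Tumour 6 was highest for only 7 of its 15 genes and tumour 2 for 4. Myc was not in this run but lay 33 measured genes away, and a link between them was not tested. On chromosome 16, hair keratin-associated genes from Krtap14 to Krtap6-3 stood at 1.19 in tumour 7, which was highest for 13 of 15, while the next tumour stood at -0.16. Such families share sequence, and cross-hybridisation was not tested.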

How the data were processed

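Each of 7 untreated tumours had 1 array of 45220 oligonucleotide spots in 2 colours. The authors deposited a log2 ratio for every spot, a scale inferred from the range of the values. How they scanned, corrected, normalized and filtered the arrays is stated neither by the labels nor by the files used here. Exact zeros, 775 to 4115 spots per array (1.71% to 9.10%), were taken as missing, since their meaning is not stated. The labels' protocols name a column kit for RNA extraction.

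By the platform's annotation, 33653 spots had 1 gene, 56 had several and 11511 had none. Spots with 1 gene and a value on at least 70% of the arrays (5 of 7) were kept, which left 32290, and spots of a gene were averaged into 18502 genes, 7985 of them with over 1 spot. The number of arrays limits the precision, and background signal was not analysed. In R 4.3.3, limma 3.58.1 (lmFit and eBayes, two-sided) tested each mean against 0, and treat tested it against a log2 fold of 1. P-values were adjusted by Benjamini-Hochberg over all genes, with a threshold of 0.05, and the fit was tested on simulated data. Title style was tested in the same way as a term.

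The tumours, gene lists, tests and naming rule were chosen with earlier results of these data known. The rule took the 15 highest and 15 lowest means beyond 2-fold with 1 sign in all 7 tumours, the 15 largest SDs among genes with 2 or more spots and the 5 largest among genes with 1 spot. It also took the 3 highest, 3 lowest and 2 most variable members of each list, a fixed set of tumour genes, and genes of distal chromosome 6. Exceptions of a list were named after their values were seen, as were genes with many spots. Of these candidates the text describes those with a clear known role. Some genes are not reported here. Gene order and promoter sequences are those of RefSeq assembly GRCm38.p6.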

Additional observations from a re-analysis of the deposited data

Results flagged for a closer look

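A tumour stood far from the other 6 for 26 of 169 values examined (genes, list medians and runs of neighbouring genes), where the gap to the nearest other tumour was over 0.568 of the whole range. Chance alone gives such a gap in about 1 of 20 values, but genes and runs chosen for their spread are among these values, so the number is not to be read against that share. Tumour 3 was high for Aire (8.88, others up to 4.29), for the tight junction gene Cldn4 (8.32, others up to 2.11) and for the chromosome 6 run from Sspn to Gm6288 (median 3.32). Tumour 3 also had a high median over the 73 genes from H2aj to Amn1 (1.23), with the highest value of 18 of them. It was low for the chemokine Ccl8 (2.19, others at least 3.41) and the protease Gzma (-5.93, others at least -3.15). Tumour 4 was high for Gata3 (3.99), the link protein Hapln1 (1.39), Mgp (5.14) and the chromosome 6 run from H2aj to Pik3c2g (median 1.58). It was low for Gja1 (-0.74), the arginase Arg1 (-4.27) and the list of epithelial-mesenchymal transition (median -0.82).

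Tumour 7 was high for the adipocyte gene Cidec (-0.088, others up to -4.88) and the matrix gene Lum (-1.02, others up to -3.44), and low for Egr2 (2.30) and the growth factor Hbegf (0.95). Tumour 2 was high for Notch1 (3.40) and Il1b (3.94) and low for Npy (-8.06) and the p53 target Sesn1 (-2.07). Tumour 1 was high for Pgr (1.33) and low for the testis and germ cell list (median -0.36). Tumour 5 was high for Afp (-3.44). Tumour 6 was high for Myc (1.78, others up to 0.83) and low for the B and plasma cell list (median -0.82). Their causes were not tested.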

How the results depend on the processing

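The counts of genes that differed from 0 (7081 to 9172) and beyond 2-fold (1804 to 2221) stayed within 1.5 times of those reported under every alternative run, as did the median SD between tumours. Leaving out each tumour gave 0 to 73 genes between title styles, replication medians of 1.54 to 1.74, basal medians of -1.01 to -0.45 and erythroid medians of -2.55 to -1.92. The SD of the chromosome 6 runs was then 0.19 to 1.15 from H2aj to Pik3c2g and 0.54 to 1.37 from Sspn to Gm6288. The means of Atr (-0.16 to 0.15), Krt14 (-0.23 to 0.18) and Pgr (-0.0938 to 0.24) changed sign and passed in none of these. With zeros kept as values, 1 gene passed between title styles and the p53 median was 0.0865. With spots measured on all 7 arrays only, the Rb and E2F median was 0.63, the milk protein median 0.86 and Atr -0.0446, while with the median of spots Atr stood at -0.0436. With the most variable spot of a gene, 2497 genes had an SD over 1, the fetal growth median was -3.90, and Espl1 (-0.42) and Pgr (-0.0938) turned. Centring arrays put Krt14 at 0.00331, and array weights put Krt14 at 0.0808 and Pgr at -0.0333. With the 5 tumours without the hyphen alone, the replication median was 1.70 and Atr -0.19. With title styles weighted equally Espl1 did not pass (adjusted p = 0.0767), nor did it with those 5 tumours (0.111), while Tk1 passed with the former (0.0488) and with arrays centred (0.0475). The causes were not tested. Of 1831 comparisons of gene means, 1789 kept their sign and side of the threshold. Scaling arrays to one SD was chosen after seeing the data and moved no count or list median beyond the limits used. No paired analysis was possible because there is 1 group and its labels carry no replicate numbers. The reference's own spread, dye effects and signal over background limit all values.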

Other observations

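The sex chromosome genes Eif2s3y, Uty, Kdm5d and Xist were in no list. The Y-linked translation factor Eif2s3y was low in all 7 tumours, with a mean of -5.15 ± 0.31, against a reference whose sexes no label states. The Y-linked genes Uty (-1.47 ± 0.35) and Kdm5d (-1.54 ± 0.33) were lower as well. Xist, the RNA that silences an X chromosome, ran from -1.03 in tumour 4 and -0.57 in tumour 1 to 2.52 in tumour 2, with a mean of 0.64 ± 0.38 that did not pass (adjusted p = 0.198).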
